A study of Rattus norvegicus with 10 samples.

Results

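The mitochondrial genome of the rat gave 37 of the 32623 features counted in gastric mucosa. They were all rows placed on chromosome MT, and they hold 13 protein-coding genes, 2 ribosomal RNA genes and 22 transfer RNA genes. The protein-coding genes encode 7 subunits of complex I, 1 of complex III, 3 of complex IV and 2 of complex V. The deposited tables hold no gene symbols, and 0 identifiers matched the reference table. Names were therefore given from the textbook gene order of the mammalian mitochondrial genome, by position, strand and length, and the strand matched at 37 of 37 features. Coordinates are those of the deposited tables, whose genome build the sources used here do not name.

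A mammalian mitochondrion carries a small circular genome that is transcribed from both strands into long precursors. Enzymes cut these precursors at the transfer RNAs that lie between the other genes, which releases messengers, ribosomal RNAs and transfer RNAs. The messengers encode core subunits of the respiratory chain and of ATP synthase, and the nucleus encodes the other subunits. In the stomach, the acid-secreting parietal cells are known for their dense content of mitochondria.

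The rats were Sprague Dawley, and RNA of their stomach mucosa was sequenced in 5 groups of 2 libraries each. Control labels named no treatment. Indomethacin at 48 mg/kg, aspirin at 400 mg/kg and diclofenac at 75 mg/kg, all non-steroidal anti-inflammatory drugs (NSAIDs) that inhibit cyclooxygenases, were given by mouth, with a time label of 4 h. The last group received honokiol, a plant lignan, by the intraperitoneal route at 40 mg/kg, then indomethacin at 48 mg/kg by mouth 30 min later. Its time label is 0.5 h, the length of that lead, and it was read as the lead. No label names a genotype other than the strain, an age or a vehicle, and honokiol alone and ibuprofen were not analysed here. Epithelial cells are the labelled cell type, and without gene symbols this could not be checked against nuclear markers. The labels do not say whether both libraries of a group stem from separate animals. Replicate 1 had 3582 counts on the Y chromosome in control and 4438 with indomethacin, against 1 and 2 in replicate 2. In these groups the libraries are thus not the same animal sampled again. Every p-value rests on the spread among the libraries, which in the other groups may be technical.

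Library totals were 23892226 to 44977459 counts, of which 5682411 to 14133137 lay on mitochondrial features. Counts on 7 features of the Y chromosome numbered 2733 to 4438 in replicate 1 of control and of indomethacin and in both libraries of the honokiol group, and at most 47 in the other 6 libraries. Both aspirin and both diclofenac libraries were thus without Y reads, unlike control replicate 1. Aspirin replicate 1 stood apart in the mitochondrial transcripts, as described below. Values per library are CPM, counts scaled to a common library total with trimmed mean of M-values (TMM) factors, and changes are log2 fold changes with standard errors (SE) from edgeR's quasi-likelihood test. Genes were called where the p-value, adjusted by Benjamini-Hochberg over the 16346 genes tested, was under 0.05. In this bulk tissue, fewer cells of a type and less RNA per cell cannot be told apart.

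With aspirin, 4 of the 23 mitochondrial features tested fell against control and none rose. They were mt-Nd3 of complex I, mt-Co2 of complex IV, mt-Atp8 of complex V and the tyrosine transfer RNA mt-Ty, with log2 fold changes between -1.35 and -1.06. Among all genes, 17.8% were called with aspirin in either direction and 8.27% were called lower, so the mitochondrial share in either direction lay near that of all genes. With diclofenac, mt-Atp8 alone of the 23 fell, by 1.27 on the log2 scale, where 7.87% of all genes were called and 3.11% were called lower. No mitochondrial feature was called with indomethacin, where 0.777% of all genes were called, or with honokiol plus indomethacin against control, where 0% were. None was called between honokiol plus indomethacin and indomethacin alone, where 0.343% of genes were called. None was called between diclofenac and indomethacin or between aspirin and indomethacin, where 0.0184% of genes were called in each. In these 5 comparisons without a call, 0, 1, 1, 1 and 4 mitochondrial features had an unadjusted p under 0.05, and DESeq2 also called 0 in each. The comparisons with control share the same 2 control libraries, and those with indomethacin the same 2 indomethacin libraries.

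These calls were not stable, and the number of calls over all genes moved as well. A term for Y reads took it from 2903 to 683 with aspirin and from 1286 to 387 with diclofenac. It also fell where control replicate 1 was left out. With a term for Y reads, 0 mitochondrial features were called with aspirin and 0 with diclofenac, and 0 and 0 when control replicate 1, the control library with Y reads, was left out. Leaving out aspirin replicate 1 gave 0 calls with aspirin, with the remaining library assumed to vary like the other groups. DESeq2 called 7 mitochondrial features with aspirin and 4 with diclofenac, of 36 that it tested, beside 3134 and 1776 of 24106 genes. Scaling to the pool of mitochondrial messengers moved the median of all genes by 0.60 (log2) with either drug, and then 0 features were called lower with either and the serine transfer RNA mt-Ts1 was called higher with aspirin. That scaling reads each gene relative to the pool, so a fall shared by the messengers cannot show in it. Of the genes called with aspirin, 1351 of 2903 were lower, against 263 of 2509 without TMM factors and 67 of 3596 scaled to the messenger pool.

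**Figure D1:**
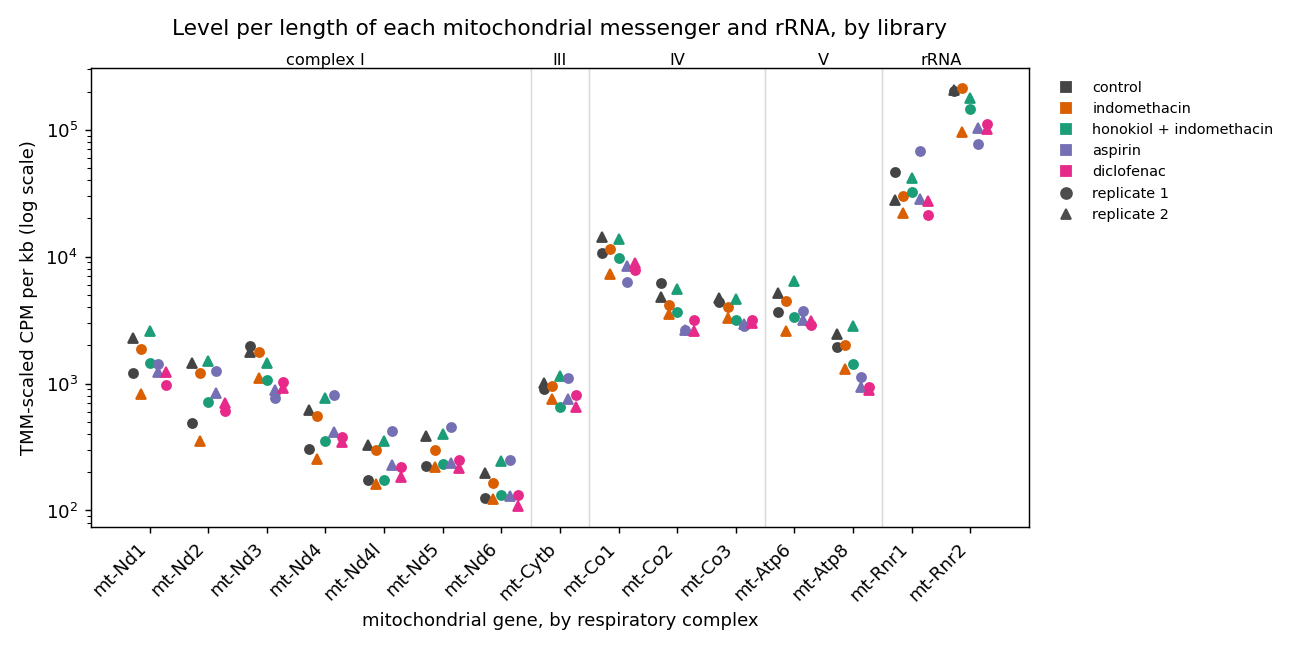
TMM-scaled CPM per kilobase of gene length (log scale) for the 13 protein-coding and 2 ribosomal RNA genes, ordered by complex. Each point is a library, coloured by group, circles are replicate 1 and triangles replicate 2, and the ribosomal RNAs lie above all messengers with mt-Co1 the highest messenger in all 10 libraries.

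Per length, the protein-coding genes formed an order that began with complex IV. The median over the 10 libraries was 9347 CPM per kb for mt-Co1, 3579 for mt-Co2, 3519 for mt-Atp6 and 3242 for mt-Co3. It was 1363 for mt-Atp8, 1336 for mt-Nd1, 1083 for mt-Nd3, 853 for mt-Cytb and 781 for mt-Nd2. The lowest medians were 399.6 for mt-Nd4, 243 for mt-Nd5, 224 for mt-Nd4l and 132 for mt-Nd6. These are levels per annotated gene, since mt-Atp8 shares a messenger with mt-Atp6, and mt-Nd4l with mt-Nd4. Medians still differed within both pairs, and the part of counting over short or overlapping genes in this order was not tested. Some neighbours did not separate: mt-Co2 lay above mt-Atp6 in 4 of 10 libraries, mt-Atp8 above mt-Nd1 in 5, mt-Atp6 above mt-Co3 and mt-Nd1 above mt-Nd3 in 7, and mt-Cytb above mt-Nd2 in 3. The steps from mt-Co1 to mt-Co2, from mt-Co3 to mt-Atp8 and from mt-Nd2 down through mt-Nd4, mt-Nd5 and mt-Nd4l to mt-Nd6 held within each of the 10 libraries. Both ribosomal RNAs exceeded every messenger, with a median of 128013 CPM per kb for mt-Rnr2 and 29267 for mt-Rnr1. The libraries had been depleted of ribosomal RNA, so these are levels left after depletion, and whether depletion was equal between libraries was not tested.

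Complex I, the NADH dehydrogenase that passes electrons from NADH to ubiquinone, has 7 mitochondrial subunits. Its mt-Nd3 gene (MT 9451 to 9798, plus strand, 348 nt, ENSRNOG00000033615) encodes a small membrane subunit whose loop shifts between the active and deactive forms of the enzyme. Its level was 689 and 613 CPM in control, 619 and 385 with indomethacin, 369 and 504 with honokiol plus indomethacin, 268 and 310 with aspirin, and 360 and 319 with diclofenac. Both aspirin and both diclofenac libraries lay below the other 6 libraries, by a narrow margin (360 with diclofenac against 369 with honokiol plus indomethacin). How many of all genes separate in this way was not counted. The log2 fold change against control was -1.17 ± 0.30 with aspirin (SE, edgeR adjusted p = 0.026), -0.94 ± 0.30 with diclofenac (0.076), -0.37 ± 0.30 with indomethacin (0.75) and -0.58 ± 0.30 with honokiol plus indomethacin (0.83). With aspirin the change was -0.96 with the Y-read term (edgeR adjusted p = 0.084), -1.05 without control replicate 1 (0.11), -1.07 without aspirin replicate 1 (0.15) and -0.58 relative to the mitochondrial messenger pool (0.38). It was called in 14 of 19 alternatives.

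The other 6 complex I messengers varied as much within groups as between them, and none was called. The membrane subunit gene mt-Nd2 (MT 3904 to 4942) had 512 and 1509 CPM in control, 1268 and 367 with indomethacin, 741 and 1565 with honokiol plus indomethacin, 1298 and 881 with aspirin, and 628 and 735 with diclofenac. Its control replicates differed by 2.95-fold and its indomethacin replicates by 3.45-fold, in opposite order, the widest replicate gap of the 15 messengers and ribosomal RNAs. The diclofenac replicates lay within the range of the controls.

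For mt-Nd1 (MT 2740 to 3694), a subunit next to the ubiquinone site, the level was 1152 and 2188 CPM in control, 1800 and 787 with indomethacin, 1385 and 2468 with honokiol plus indomethacin, 1373 and 1180 with aspirin, and 928 and 1167 with diclofenac. The proton-pumping membrane subunit gene mt-Nd4 (MT 10160 to 11537) had 421 and 850 CPM in control, 766 and 352 with indomethacin, 482 and 1057 with honokiol plus indomethacin, 1119 and 577 with aspirin, and 524 and 478 with diclofenac. Its neighbour mt-Nd4l (MT 9870 to 10166), which shares 7 bases with mt-Nd4, had 51.4 and 97.4 CPM in control, 88.4 and 47.8 with indomethacin, 51.5 and 105 with honokiol plus indomethacin, 126 and 68.0 with aspirin, and 65.1 and 54.0 with diclofenac. In all 3 genes, control replicate 2, indomethacin replicate 1 and honokiol plus indomethacin replicate 2 were the higher libraries of their groups. Aspirin replicate 1 was the highest of all libraries for mt-Nd4 and mt-Nd4l.

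The gene mt-Nd5 (MT 11736 to 13565), another proton-pumping subunit, had 408 and 711 CPM in control, 548 and 406 with indomethacin, 422 and 738 with honokiol plus indomethacin, 834 and 432 with aspirin, and 456 and 398 with diclofenac. On the opposite strand, mt-Nd6 (MT 13543 to 14061, minus strand) is the only messenger of the light-strand transcript and shares 23 bases of position with mt-Nd5. Its level was 65.0 and 103 CPM in control, 84.7 and 63.5 with indomethacin, 68.4 and 128 with honokiol plus indomethacin, 131 and 68.0 with aspirin, and 68.8 and 56.0 with diclofenac. Aspirin replicate 1 was again the highest library for both genes, while aspirin replicate 2 lay within the control range. For the 6 uncalled complex I messengers, the log2 fold change lay between -0.39 and 0.42 with aspirin, between -0.67 and -0.32 with diclofenac, between -0.37 and -0.13 with indomethacin, and between 0.05 and 0.28 with honokiol plus indomethacin, all against control.

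Complex III, which passes electrons from ubiquinol to cytochrome c, has mt-Cytb (MT 14136 to 15278) as its only mitochondrial subunit gene. It had 1028 and 1146 CPM in control, 1090 and 870 with indomethacin, 754 and 1315 with honokiol plus indomethacin, 1260 and 856 with aspirin, and 923 and 747 with diclofenac. Both diclofenac libraries lay below both controls, as they did for 28.3% of all genes tested, and the other groups overlapped the controls. The log2 fold change was -0.38 ± 0.34 with diclofenac (SE, edgeR adjusted p = 0.51) and -0.04 ± 0.34 with aspirin (0.95), and neither passed the test.

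Complex IV, the cytochrome c oxidase that reduces oxygen to water, has its catalytic core in 3 mitochondrial subunits. The gene mt-Co2 (MT 7006 to 7689, 684 nt) encodes the subunit that receives electrons from cytochrome c through its copper centre. It had 4246 and 3292 CPM in control, 2827 and 2407 with indomethacin, 2489 and 3825 with honokiol plus indomethacin, 1808 and 1816 with aspirin, and 2160 and 1778 with diclofenac. The 4 aspirin and diclofenac libraries lay below the other 6, a separation that was not counted over all genes. Both indomethacin libraries lay below both controls, as they did for 18.2% of all genes tested. The log2 fold change against control was -1.06 ± 0.33 with aspirin (SE, edgeR adjusted p = 0.046), -0.94 ± 0.33 with diclofenac (0.096), -0.53 ± 0.33 with indomethacin (0.66) and -0.26 ± 0.32 with honokiol plus indomethacin (0.88). The aspirin value was -0.90 with the Y-read term (edgeR adjusted p = 0.13), -0.83 without control replicate 1 (0.21) and -0.48 relative to the mitochondrial messenger pool (0.50). It was called in 3 of 19 alternatives.

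The catalytic subunit gene mt-Co1 (MT 5323 to 6867) had 16600 and 21983 CPM in control, 17665 and 11217 with indomethacin, 15179 and 21107 with honokiol plus indomethacin, 9676 and 12961 with aspirin, and 12049 and 13705 with diclofenac. Its partner mt-Co3 (MT 8599 to 9382) had 3433 and 3730 CPM in control, 3173 and 2578 with indomethacin, 2506 and 3604 with honokiol plus indomethacin, 2224 and 2314 with aspirin, and 2477 and 2343 with diclofenac. For both genes the aspirin and diclofenac libraries all lay below both controls, without passing the test. The same held for 30.2% of all genes tested with aspirin and 28.3% with diclofenac. For mt-Co3 both indomethacin libraries lay below both controls too, as for 18.2% of all genes. With aspirin the log2 fold change was -0.77 ± 0.38 for mt-Co1 (SE, edgeR adjusted p = 0.16) and -0.66 ± 0.31 for mt-Co3 (0.15). With diclofenac it was -0.58 ± 0.38 for mt-Co1 (0.35) and -0.57 ± 0.31 for mt-Co3 (SE, edgeR adjusted p = 0.26).

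Complex V, the ATP synthase, has its proton channel subunit in mt-Atp6 and a small stator subunit in mt-Atp8. The gene mt-Atp8 (MT 7758 to 7961, 204 nt, ENSRNOG00000033299) is the shortest protein-coding gene of the mitochondrial genome. It had 399 and 505 CPM in control, 414 and 264 with indomethacin, 292 and 580 with honokiol plus indomethacin, 228 and 191 with aspirin, and 191 and 183 with diclofenac. The 4 aspirin and diclofenac libraries lay below the other 6, again without a count of this separation over all genes. The log2 fold change against control was -1.27 ± 0.35 with diclofenac (SE, edgeR adjusted p = 0.047), -1.11 ± 0.35 with aspirin (0.048), -0.41 ± 0.34 with indomethacin (0.76) and -0.05 ± 0.34 with honokiol plus indomethacin (0.98). With the Y-read term the adjusted p of edgeR's test was 0.12 for each drug (log2 fold change -1.21 with diclofenac and -1.04 with aspirin). Without control replicate 1 the change was -1.40 with diclofenac (edgeR adjusted p = 0.12) and -1.23 with aspirin (0.11). Relative to the messenger pool it was -0.66 with diclofenac (edgeR adjusted p = 0.32) and -0.49 with aspirin (0.47). It was called in 8 of 19 alternatives with diclofenac and in 5 of 19 with aspirin.

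The gene mt-Atp6 (MT 7919 to 8599) shares a bicistronic messenger and 43 bases with mt-Atp8. It had 2499 and 3539 CPM in control, 3028 and 1757 with indomethacin, 2294 and 4399 with honokiol plus indomethacin, 2562 and 2143 with aspirin, and 1987 and 2117 with diclofenac. Its log2 fold change was -0.36 ± 0.39 with aspirin (SE, edgeR adjusted p = 0.53) and -0.56 ± 0.39 with diclofenac (0.39), neither of which passed.

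**Figure D2:**
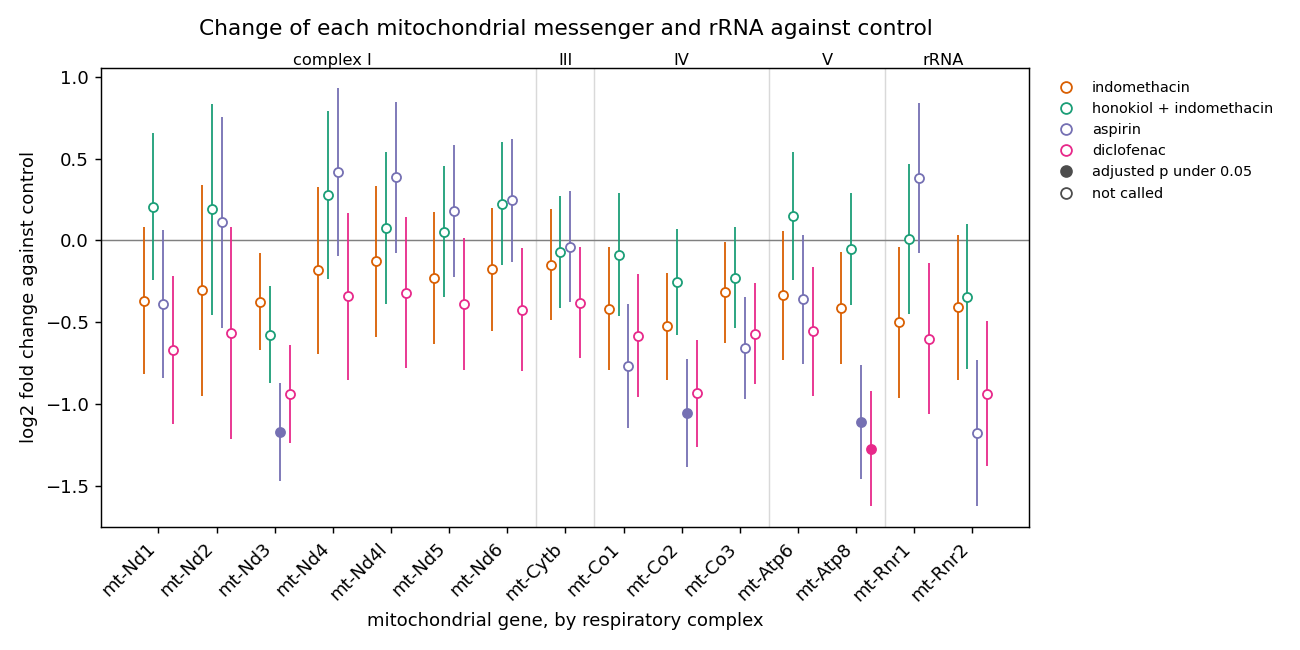
Log2 fold change against control for each protein-coding and ribosomal RNA gene in 4 treated groups, with bars of 1 SE from edgeR. Filled points passed an adjusted p under 0.05: mt-Nd3 (-1.17), mt-Co2 (-1.06) and mt-Atp8 (-1.11) with aspirin, and mt-Atp8 (-1.27) with diclofenac. All treated groups share the same 2 control libraries.

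The bicistronic pair was followed as a ratio within each library, which needs no scaling between libraries. This ratio was chosen after its values were seen and is given with no test. Counts on mt-Atp8 were 0.160 and 0.143 of those on mt-Atp6 in control, 0.137 and 0.150 with indomethacin, 0.127 and 0.132 with honokiol plus indomethacin, 0.0890 and 0.0889 with aspirin, and 0.0962 and 0.0863 with diclofenac. The 4 aspirin and diclofenac libraries lay at 0.0863 to 0.0962 and the other 6 at 0.127 to 0.160. In the other bicistronic pair, mt-Nd4l to mt-Nd4, the ratio was 0.113 to 0.124 in those 4 libraries and 0.0996 to 0.136 in the other 6. These ranges overlapped, but both honokiol plus indomethacin libraries, at 0.107 and 0.0996, lay below all other libraries. The 4 aspirin and diclofenac libraries lacked Y reads, as did control replicate 2 and indomethacin replicate 2, where the mt-Atp8 ratio was 0.143 and 0.150. The pairs also differ in overlap, with 43 bases shared by mt-Atp8 and mt-Atp6 and 7 by mt-Nd4l and mt-Nd4. The part of Y state, and of counting over shared bases, in the mt-Atp8 ratio was not tested. Files of these 4 libraries also ended in 2 empty lines and the rest in 1, and drug treatment and any separate handling of these libraries cannot be told apart.

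**Figure D3:**
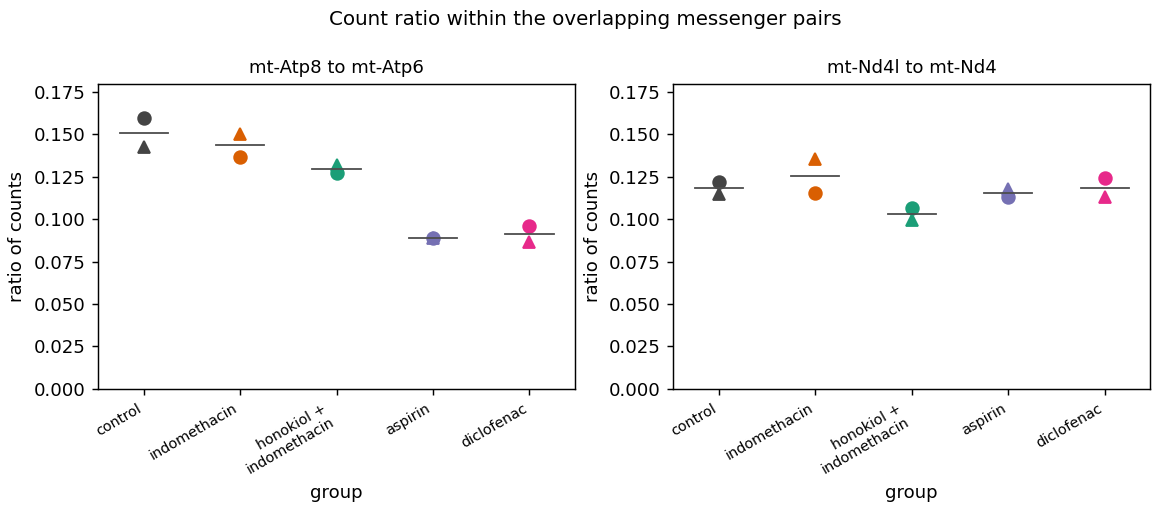
Ratio of counts within each overlapping messenger pair, by group. Circles are replicate 1, triangles replicate 2 and lines group means (n = 2). The mt-Atp8 to mt-Atp6 ratio lay at 0.0863 to 0.0962 in the aspirin and diclofenac libraries and at 0.127 to 0.160 elsewhere. For mt-Nd4l to mt-Nd4 the aspirin and diclofenac libraries overlapped the rest. Both honokiol plus indomethacin libraries (0.107 and 0.0996) lay below all others in that ratio. The 2 aspirin points nearly coincide in the mt-Atp8 panel.

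The called protein-coding genes mt-Atp8, mt-Nd3 and mt-Co2 are 204, 348 and 684 nt long, and nuclear genes were grouped by length for comparison. Because mt-Atp8 lies on a bicistronic messenger with mt-Atp6, its messenger is longer than its gene. With aspirin, the median log2 fold change was -0.03 over 873 nuclear genes of at most 350 nt, -0.29 over 1948 longer genes of up to 1000 nt and 0.03 over 13502 genes longer than that. With diclofenac these medians were 0.05, -0.22 and 0.01. Among the mitochondrial genes themselves, mt-Nd4l, at 297 nt and in a bicistronic pair with mt-Nd4, had a log2 fold change of 0.38 with aspirin and -0.32 with diclofenac. The part of gene or messenger length in the calls was not tested.

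The direction of the 15 messengers and ribosomal RNAs as a group rested in several comparisons on single libraries. With diclofenac all 15 had a log2 fold change below 0 and their median was -0.57, beside -0.01 over all genes tested. Without control replicate 2 this became 11 of 15 and -0.27. With indomethacin all 15 were also below 0, with a median of -0.34 beside -0.02 over all genes, but 7 of 15 were below 0 without indomethacin replicate 2 (median 0.0050) and 9 of 15 without control replicate 2 (-0.06). With aspirin 9 of 15 were below 0 and the median was -0.36, beside -0.0013 over all genes. Without aspirin replicate 1 all 15 were below 0 (median -0.49), and without control replicate 2 it was 7 of 15 (0.07).

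With honokiol plus indomethacin against control, 7 of 15 were below 0, with a median of 0.01 beside -0.01 over all genes. The libraries of that group lay apart: without replicate 2 all 15 were below 0 (median -0.43), and without replicate 1 it was 2 of 15 (0.36). Without control replicate 1 it was 14 of 15 (-0.20). Against indomethacin alone, honokiol plus indomethacin gave values above 0 for 14 of 15, with a median of 0.33 beside -0.02 over all genes. This became 3 of 15 without replicate 2 of the honokiol group (median -0.14) and 9 of 15 without indomethacin replicate 2 (0.04), so no direction is given for this comparison.

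Scaling to the messenger pool sets the sum of the messengers equal in all libraries, and then 7 of 15 were below 0 with indomethacin, 6 with diclofenac and 6 with aspirin. With that sum held equal the messengers cannot all fall together, so these counts say nothing on their direction as a group. Both libraries of a group lay below both controls for 9 of 15 genes with diclofenac, 6 with aspirin, 2 with indomethacin and 2 with honokiol plus indomethacin. Among all genes tested the same held for 28.3% with diclofenac, 30.2% with aspirin, 18.2% with indomethacin and 19.4% with honokiol plus indomethacin, while 7.87%, 17.8%, 0.777% and 0% were called.

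The ribosomal RNAs form the small (mt-Rnr1, MT 68 to 1025) and large (mt-Rnr2, MT 1094 to 2664) subunits of the mitochondrial ribosome. For mt-Rnr2 the level was 318905 and 321971 CPM in control, 331997 and 150362 with indomethacin, 227202 and 277394 with honokiol plus indomethacin, 121477 and 161536 with aspirin, and 175016 and 159774 with diclofenac. Indomethacin replicate 1 was the highest library and replicate 2 lay among the aspirin and diclofenac libraries. For mt-Rnr1 it was 44106 and 26562 CPM in control, 28627 and 21282 with indomethacin, 31142 and 39870 with honokiol plus indomethacin, 64556 and 27448 with aspirin, and 20464 and 26088 with diclofenac. Aspirin replicate 1 had the highest mt-Rnr1 level and the lowest mt-Rnr2 level of the 10 libraries. The log2 ratio of mt-Rnr2 to mt-Rnr1 was accordingly 0.91 in that library and 2.56 to 3.60 in the other 9. Neither ribosomal RNA was called in any comparison. Against control, the log2 fold change of mt-Rnr2 was -1.18 ± 0.45 with aspirin (SE, edgeR adjusted p = 0.083) and -0.94 ± 0.45 with diclofenac (0.20). It was -0.41 ± 0.44 with indomethacin (0.83) and -0.34 ± 0.44 with honokiol plus indomethacin (0.88). For mt-Rnr1 it was 0.38 ± 0.46 with aspirin (SE, edgeR adjusted p = 0.58) and -0.60 ± 0.46 with diclofenac (0.43).

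Mitochondrial features together took 35.1% and 36.2% of library counts in control, 32.4% and 21.7% with indomethacin, 31.5% and 35.4% with honokiol plus indomethacin, 23.8% and 22.8% with aspirin, and 21.4% and 21.1% with diclofenac. Counting error is small beside these differences, at most 0.018 percentage points to either side (exact Clopper-Pearson, 95%). The aspirin and diclofenac libraries and indomethacin replicate 2 lay below 24%, and the other 5 above 31%. Over the 5 groups the share did not pass an exact permutation test of F (p = 0.072, adjusted p = 0.40 over 11 measures, where the smallest p the design allows is 0.0011). Leaving out 1 library at a time, the adjusted p of the same exact test was 0.041 without indomethacin replicate 1, 0.093 without indomethacin replicate 2 and 0.16 to 0.61 without the others. Where a group is left with 1 library, the spread comes from the other groups alone, and the first of these values drops the indomethacin library nearer the controls. Most of the mitochondrial share was ribosomal RNA left after depletion, and whether depletion was equal between libraries was not tested. Ribosomal RNA took 32.3% and 32.4% of library counts in control, 29.7% and 19.3% with indomethacin, and 28.5% and 31.3% with honokiol plus indomethacin. It took 21.2% and 20.2% with aspirin, and 19.2% and 18.7% with diclofenac. Messengers alone took 2.80% and 3.75% in control, 2.74% and 2.42% with indomethacin, 2.98% and 4.09% with honokiol plus indomethacin, 2.61% and 2.55% with aspirin, and 2.24% and 2.42% with diclofenac, with an adjusted p of 0.43 by the exact permutation test.

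Within the messenger pool, complex IV took 77.1% and 72.0% of counts in control, 70.9% and 75.4% with indomethacin, 74.6% and 68.9% with honokiol plus indomethacin, 59.8% and 71.8% with aspirin, and 73.1% and 74.0% with diclofenac. Complex I took 10.5% and 15.1% in control, 15.5% and 11.2% with indomethacin, 13.02% and 15.9% with honokiol plus indomethacin, 22.5% and 14.8% with aspirin, and 13.3% and 13.3% with diclofenac. Aspirin replicate 1 thus held the largest complex I share and the smallest complex IV share, and its partner library lay among the others. Complex V took 9.20% to 12.2% and complex III 2.79% to 5.50% over the 10 libraries. The log2 ratio of the light-strand messenger mt-Nd6 to the 12 heavy-strand messengers was -7.44 in aspirin replicate 1 and -8.92 to -8.34 elsewhere. For the 4 complex shares and 3 log2 ratios (light to heavy strand, ribosomal to messenger RNA, and large to small ribosomal RNA), the exact permutation test over the 5 groups gave adjusted p-values of 0.46 to 0.64.

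**Figure D4:**
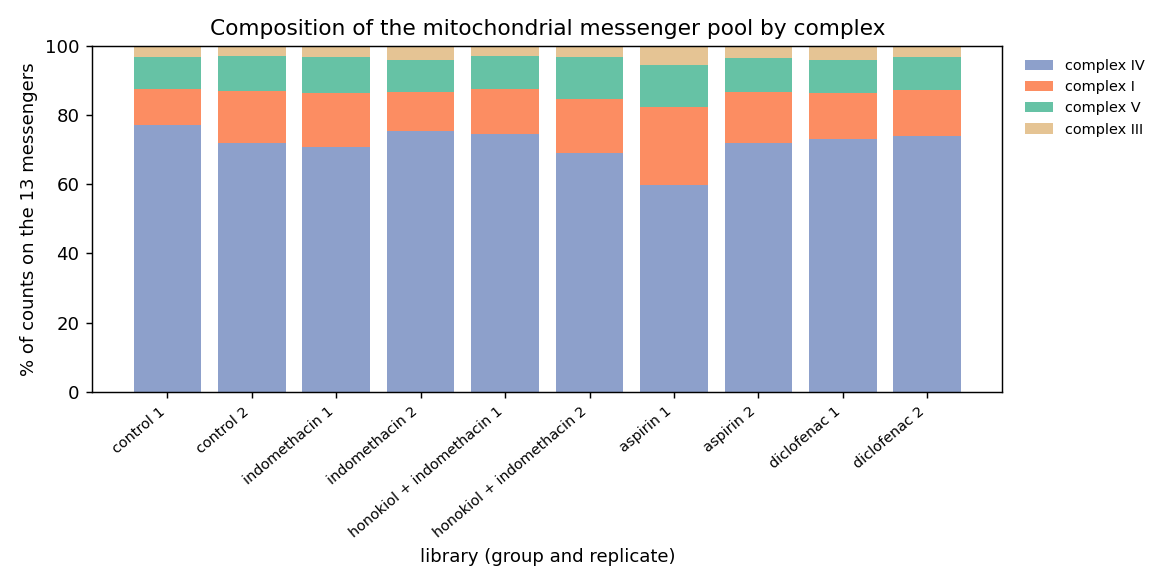
Share of counts on the 13 mitochondrial messengers by respiratory complex, a bar for each library. Complex IV holds 68.9% to 77.1% of the pool in 9 libraries and 59.8% in aspirin replicate 1, where complex I holds 22.5%.

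The 22 transfer RNA genes, of 60 to 75 nt, received 612 to 1281 counts per library in all, against 622942 to 1206017 on the messengers. The protocol did not select small RNA, and whether these counts come from mature transfer RNA or from precursors was not tested. Over the 10 libraries, 9525 of 10272 transfer RNA counts (92.7%) lay on the 8 genes of the minus strand, and mt-Tn, mt-Tp, mt-Tc and mt-Ty held 86.7% of all. Plus-strand transfer RNA genes such as mt-Tv and mt-Tl1 directly adjoin longer genes of the same strand, so a read may overlap both. How such reads were counted is not named, and the part of this in the strand share was not tested. The genes mt-Tn, mt-Tc and mt-Ty lie beside each other between mt-Nd2 and mt-Co1, and mt-Tp lies at the end of the annotated part. The low-count filter kept 8 transfer RNAs for the test. The other 14 had at most 9 counts in any library. In the fits without that filter, 13 of these 14 entered and none was called, with a smallest adjusted p of 0.18 in edgeR, while DESeq2 left most of their adjusted p-values missing. The phenylalanine transfer RNA mt-Tf had 0 counts throughout, which by counting error alone allows up to 0.00854 CPM over the 10 libraries together. It starts at base 1 of the deposited coordinates and adjoins mt-Rnr1. Whether reads over it could be placed and counted was not tested, so this is no limit on the RNA itself.

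The tyrosine transfer RNA mt-Ty (MT 5256 to 5321, minus strand) had 4.29 and 1.50 CPM in control, 2.26 and 2.23 with indomethacin, 1.88 and 2.13 with honokiol plus indomethacin, 0.956 and 1.30 with aspirin, and 1.70 and 1.62 with diclofenac. Control replicate 1 was the highest library, and control replicate 2 lay below both indomethacin libraries. The log2 fold change with aspirin was -1.35 ± 0.43 (SE, edgeR adjusted p = 0.04997), at the threshold, and rested on that library: without control replicate 1 it was -0.36 (edgeR adjusted p = 0.55), without control replicate 2 -1.88 (0.015), and with the Y-read term -0.84 (0.24). It was called in 3 of 19 alternatives.

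The asparagine transfer RNA mt-Tn (MT 5081 to 5152) had 12.8 and 11.3 CPM in control, 14.2 and 10.99 with indomethacin, 8.29 and 7.89 with honokiol plus indomethacin, 6.84 and 14.2 with aspirin, and 10.9 and 12.3 with diclofenac. The proline transfer RNA mt-Tp (MT 15348 to 15415) had 11.8 and 9.65 CPM in control, 11.3 and 5.75 with indomethacin, 10.3 and 11.9 with honokiol plus indomethacin, 5.66 and 7.22 with aspirin, and 6.15 and 7.97 with diclofenac. The cysteine transfer RNA mt-Tc (MT 5185 to 5252) had 7.26 and 3.00 CPM in control, 4.15 and 4.11 with indomethacin, 2.27 and 2.69 with honokiol plus indomethacin, 2.57 and 3.86 with aspirin, and 3.42 and 3.05 with diclofenac. None of the 3 was called in any comparison. Control replicate 1 was the highest library for mt-Tc, as for mt-Ty, and the asparagine transfer RNA was lowest in the honokiol group and aspirin replicate 1. The serine transfer RNA mt-Ts1, on the strand opposite mt-Co1 with 3 bases shared, was singled out after its values were seen. It had 1.01 and 1.60 CPM in control and 3.13 and 2.30 with aspirin, and its log2 fold change of 1.05 ± 0.40 missed the threshold (SE, edgeR adjusted p = 0.083).

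**Figure D5:**
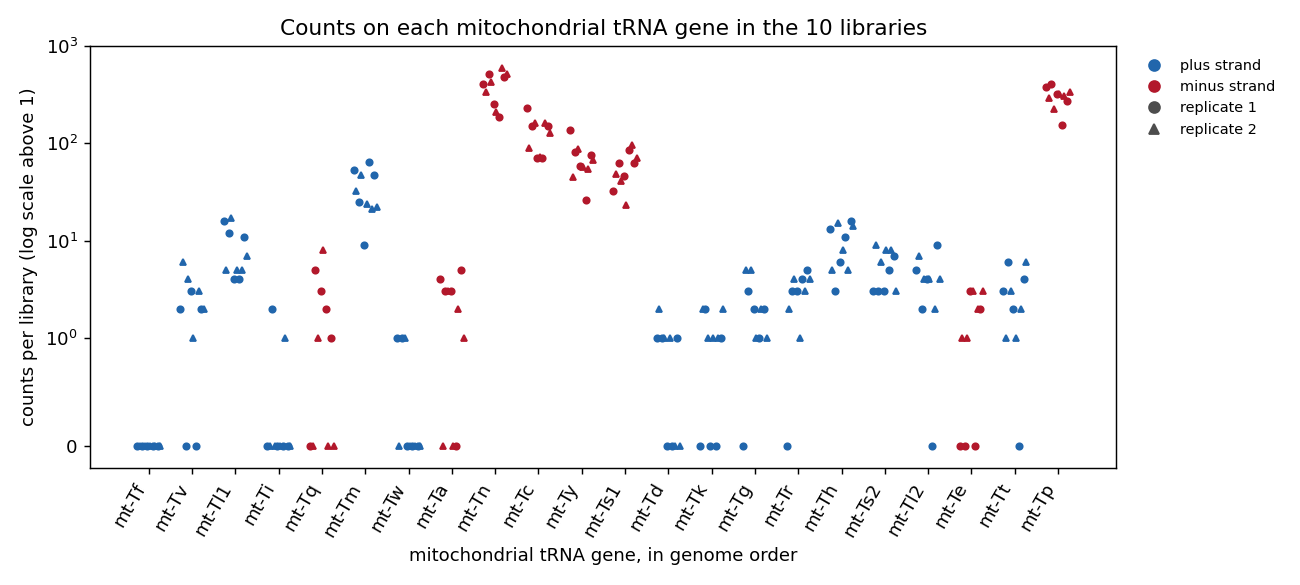
Counts on each of the 22 transfer RNA genes in genome order (log scale above 1, linear to 0), a point for each of the 10 libraries. Minus-strand genes (red) include the 5 with the highest totals, from mt-Tn (186 to 600 counts) to mt-Ts1 (23 to 97), and mt-Tf has 0 in all libraries.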

How the data were processed

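Per the labels' protocols, total RNA (200 ng per library) was depleted of ribosomal RNA, fragmented, made into stranded libraries and sequenced as 100 bp paired ends. The submitters' processing notes name HISAT2 2.1.0, cutadapt 1.16, FastQC 0.11.7, featureCounts, SAMtools, DESeq2 and bcl2fastq. The authors deposited raw counts per gene, 1 table per library, with a gene length column in the featureCounts layout per the file headers. The sources used here do not name the genome build, the strand setting or the handling of multiply matching reads. Reads of overlapping or antisense genes, such as mt-Nd5 and mt-Nd6 or mt-Co1 and mt-Ts1, may therefore not be told apart, and nuclear copies of mitochondrial sequence may share reads.

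All genes of all 10 libraries entered 1 fit in edgeR 4.0.16 (R 4.3.3) with TMM factors, default filterByExpr (minimum count 10, minimum total 15), robust quasi-likelihood moderation and group as the only term, which left 5 residual degrees of freedom. Of 16346 genes tested, 23 were mitochondrial. The SE is the size of the log2 fold change divided by the square root of F. The fit was tested on simulated data for aspirin against control. It called 24 of 100 genes changed 2-fold and 92 of 100 changed 4-fold, with 6 false calls. A change near 2-fold can therefore go uncalled. A set of 11 shares and ratios was tested by exact permutation of F over the 945 partitions into 5 groups, with Benjamini-Hochberg adjustment; 2 libraries against 2 cannot go below p = 0.33. Intervals and the limit behind 0 counts (3 counts) cover counting error only.

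The mitochondrial genes and all lists were chosen with earlier results of these data known. All 13 protein-coding and 2 ribosomal RNA genes are named, with called transfer RNAs and the 4 of highest mean CPM. Nuclear gene lists and cell type markers could not be applied, because 0 identifiers matched a symbol, and the RefSeq tables used here hold 0 mitochondrial genes, so no sequences are printed. Y reads were scored as present above 1000 counts, summed over Y features with a total of 50 or more and with 0 counts in some library. Alternatives were other scalings, DESeq2 1.42.0, no low-count filter, fits of 2 groups, the replicate number as a block, a term for Y reads, and leaving out each library in turn.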

Additional observations from a re-analysis of the deposited data

How the results depend on the processing

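The count of mitochondrial features called with diclofenac against control (1) became 0 when scaled to the messenger pool, in a fit of the 2 groups alone, with the replicate block and with the Y-read term, 2 without the low-count filter, and 4 with DESeq2. Leaving out 1 library at a time gave 0 to 2. The count with aspirin (4) became 2 with nuclear totals, 1 when scaled to the messenger pool, 7 with DESeq2, 0 in a fit of the 2 groups alone, 1 with the replicate block and 0 with the Y-read term. Leaving out 1 library at a time gave 0 to 3, with 0 without control replicate 1 and without aspirin replicate 1. With diclofenac, the count was 0 without either diclofenac library, either indomethacin library, control replicate 1 or aspirin replicate 2, and 2 without control replicate 2. With aspirin, it was 2 without indomethacin replicate 2, either honokiol plus indomethacin library or aspirin replicate 2, and 1 without indomethacin replicate 1 or either diclofenac library. In the other 5 comparisons the count was 0 under all 19 alternatives. Calls over all genes moved too. With diclofenac they went from 1286 to 387 with the Y-read term and to 2650 without the low-count filter. With aspirin they went from 2903 to 683 with the Y-read term, to 3596 when scaled to the messenger pool and to 4198 without the low-count filter. DESeq2 and the fit without the filter tested 36 mitochondrial features, against 23 in the main fit. None of the 5 called log2 fold changes reversed. For the 5, the adjusted p ranged from 0.0013 to 0.32 (mt-Atp8, diclofenac), 0.00030 to 0.38 (mt-Nd3, aspirin), 0.00078 to 0.50 (mt-Co2), 0.0048 to 0.47 (mt-Atp8) and 0.0043 to 0.55 (mt-Ty). Same-numbered libraries of different groups deviated together in 4 of 10 pairs only (correlations from -0.26 to 0.30), so the numbers were not taken to pair the libraries. For the share of counts on all mitochondrial features, the adjusted exact permutation p ran from 0.041, without indomethacin replicate 1, to 0.61 over the libraries left out, and for the ribosomal RNA share from 0.035 to 0.61. The cause of these changes was not tested. Of the 14 transfer RNAs outside the low-count filter, 13 entered the fits of DESeq2 and of edgeR without the filter, and none was called.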
